A study of Mus musculus with 12 samples.

Results

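The Rab GTPases are the small GTP-binding proteins that give each membrane compartment of a cell its identity. All genes of the deposited table that are protein-coding and whose symbol is Rab followed by a number, with an optional letter and digit, were taken, which gave 52 of the 27487 genes listed. Of these, 47 were among the 16387 genes that passed a filter on low counts and were tested. RNA selected with oligo-dT was sequenced from 12 libraries of BV2, an immortalised mouse microglial line. Microglia are macrophages that live in the brain and retina. In the Neu+NETS group (4 libraries) BV2 cells shared a culture with primary mouse neutrophils exposed to PMA (phorbol 12-myristate 13-acetate), which switches on protein kinase C, so that they shed extracellular traps made of chromatin and granule proteins. In the Neu group (4 libraries) the primary neutrophils had not been given PMA, and in the CTR group (4 libraries) BV2 cells grew alone. The study asks how neutrophils and their traps act on microglia. The sources used here give no culture times or cell ratios, and do not say whether neutrophils or PMA were removed before RNA was taken, so PMA itself and the traps cannot be told apart in Neu+NETS, and neither can fewer cells of a type and less RNA per cell.

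A Rab protein is active when it carries GTP. Guanine nucleotide exchange factors load the GTP and thereby place the Rab on a membrane, GTPase-activating proteins end the active state, and GDP dissociation inhibitors lift the inactive protein back into the cytosol with its prenyl tail covered. Active Rabs bind effectors such as tethers and motor adaptors, and in macrophages this system drives the ripening of phagosomes, the recycling of surface receptors and the release of granules and lysosome-related organelles.

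Library totals ran from 53512190 to 68316549 estimated counts, and about 4 counts were assumed to stand for a fragment. Levels below are FPKM, in which fragments are scaled to the length of the transcript and the size of the library, as mean ± SD of 4 libraries unless single libraries are given. Differences are log2 fold changes ± SE from edgeR's quasi-likelihood test on the estimated counts with libraries scaled by TMM. A ratio of FPKM means can therefore depart from the fitted fold, and small differences can change direction. Rab5c averaged 61.0 FPKM in Neu+NETS and 58.7 FPKM in Neu, while its fitted log2 fold change was -0.05 ± 0.04. Rab1a averaged 49.7 and 46.2 FPKM in these groups, with a fitted value of 0.001 ± 0.03. Genes with a Benjamini-Hochberg adjusted p under 0.05 over all genes tested were called. The labels name retina as the tissue beside the BV2 line, but all 7 retinal neuron and glia markers in the table lay under 1 FPKM in every group, with summed levels of 0.642 to 0.761 FPKM in Neu+NETS, 0.657 to 1.06 FPKM in Neu and 0.768 to 1.02 FPKM in CTR. The 18 microglia and macrophage markers summed to 928 to 945 FPKM in Neu+NETS, 1499 to 1562 FPKM in Neu and 1434 to 1514 FPKM in CTR. The 15 neutrophil markers in the table summed to 3.73 to 4.75 FPKM in Neu+NETS, 31.2 to 32.8 FPKM in Neu and 16.5 to 18.03 FPKM in CTR. Among them Mmp8, Camp, Ngp, Mpo and Elane were at 0 in all Neu+NETS libraries, but none averaged more than 0.185 FPKM in any group. Most of the Neu sum came from Trem1 and Il1r2, at 13.99 and 8.03 FPKM. In CTR, where BV2 cells grew alone, Trem1 was at 8.83 FPKM and Csf3r at 5.15 FPKM, against 4.155 FPKM for Csf3r in Neu. The sum is therefore not a measure of neutrophils alone. No label states that the 4 libraries of a group are separate cultures, and the p-values therefore rest on a spread that may be only technical.

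Promoter windows of 4 Rab genes are shown as examples of the orders of groups described below: Rab32 was lowest in Neu+NETS and highest in CTR, Rab35 was lowest in Neu, and Rab6a and Rab24 were highest in Neu. Each window runs from 250 bases before to 50 bases after the RefSeq start, in build GRCm38.p6, 5′ to 3′ on the gene's strand, with matches to 6 motifs in capitals. The motifs were CACGTG (E-box), TGANTCA (AP-1), TGACGTCA (cyclic AMP response element), GAGGAAGT (PU.1), CCAAT (the CCAAT box) and GGGCGG (the box of the factor Sp1, called the GC box below), all searched on both strands, where N is any base.
Rab32, chr10:10558158-10558457, minus strand: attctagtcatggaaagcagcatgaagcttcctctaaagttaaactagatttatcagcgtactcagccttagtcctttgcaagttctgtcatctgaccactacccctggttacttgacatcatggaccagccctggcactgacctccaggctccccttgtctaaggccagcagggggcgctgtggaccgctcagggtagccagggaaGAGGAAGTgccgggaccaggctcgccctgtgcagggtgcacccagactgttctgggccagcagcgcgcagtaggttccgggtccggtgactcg
Rab35, chr5:115631737-115632036, plus strand: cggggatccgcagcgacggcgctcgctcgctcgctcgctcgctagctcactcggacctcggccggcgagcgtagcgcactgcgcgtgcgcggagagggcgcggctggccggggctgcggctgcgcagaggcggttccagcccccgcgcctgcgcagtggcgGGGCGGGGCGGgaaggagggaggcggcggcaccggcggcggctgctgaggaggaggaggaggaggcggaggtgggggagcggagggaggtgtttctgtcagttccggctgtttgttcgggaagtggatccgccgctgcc
Rab6a, chr7:100607336-100607635, plus strand: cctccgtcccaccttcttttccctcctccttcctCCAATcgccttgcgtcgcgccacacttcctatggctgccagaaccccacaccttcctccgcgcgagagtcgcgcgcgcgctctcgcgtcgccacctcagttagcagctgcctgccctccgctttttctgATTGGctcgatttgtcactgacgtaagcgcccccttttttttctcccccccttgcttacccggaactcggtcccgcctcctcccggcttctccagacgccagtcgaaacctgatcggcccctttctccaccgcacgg
Rab24, chr13:55321931-55322230, minus strand: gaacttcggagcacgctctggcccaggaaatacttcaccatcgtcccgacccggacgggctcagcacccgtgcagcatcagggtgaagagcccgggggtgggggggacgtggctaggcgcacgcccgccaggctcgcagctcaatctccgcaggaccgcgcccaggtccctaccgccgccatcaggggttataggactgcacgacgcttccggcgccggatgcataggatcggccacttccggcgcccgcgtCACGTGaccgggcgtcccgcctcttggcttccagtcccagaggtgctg
The Rab32 window held 10 CpG dinucleotides and 1 match, the PU.1 motif starting at position -43 from the start. The Rab35 window held 43 CpG and 2 GC boxes that overlap by a base, at -89 and -84. The Rab6a window held 29 CpG and 2 CCAAT boxes at -216 and -87, and the Rab24 window held 32 CpG and an E-box at position 3. Across the family, 44 Rab genes matched 56 windows of the RefSeq table, and Rab44 and Rab7b were not among them. Their median was 20 CpG and 61.2% G+C, against 7 CpG and 52.7% over all 32851 windows of the same length. The full set was not limited to genes tested here, whereas 40 of the 44 Rab genes were tested. Windows were counted singly, so a gene with several windows counts more than once. The GC box was present in 66.1% of Rab windows and 35.7% of all windows, the CCAAT box in 42.9% and 37.4%, and the E-box in 10.7% and 7.15%. The AP-1 motif was present in 5.36% of Rab windows and 7.81% of all windows, the cyclic AMP response element in 3.57% and 1.79%, and the PU.1 motif in 3.57% and 3.20%, in Rab32 and Rab2b. A match is a string of letters and not evidence that a factor binds.

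The summed level of the family was highest in CTR. Summed over the 52 genes, Rab transcripts reached 759 ± 8.04 FPKM in Neu+NETS, 737 ± 2.86 FPKM in Neu and 813 ± 7.32 FPKM in CTR, which was 0.259%, 0.257% and 0.275% of all FPKM. The sums were not scaled by TMM, and the median Rab log2 fold change in Neu+NETS against Neu was -0.155 in the edgeR fit. The small gap between the Neu+NETS and Neu sums may therefore depend on the scale, and it was not tested. Of the 52 genes, 27 reached 10 FPKM in at least 1 group, 13 lay between 1 and 10 FPKM, and 12 stayed under 1 FPKM everywhere. Rab7, which governs fusion of late endosomes and phagosomes with lysosomes, ranked first in every group. The 6 highest genes held 51.9% of the summed level in Neu+NETS (Rab7, Rab31, Rab1b, Rab5c, Rab1a and Rab10), 46.0% in Neu (Rab7, Rab31, Rab5c, Rab1a, Rab1b and Rab6a) and 50.4% in CTR (Rab7, Rab1b, Rab5c, Rab1a, Rab31 and Rab32). Rab32 ranked 25th in Neu+NETS, 8th in Neu and 6th in CTR. Replicates of most genes lay close together: over the 40 genes of at least 1 FPKM in some group, the median coefficient of variation was 3.72% in Neu+NETS, 5.15% in Neu and 4.65% in CTR. The highest value of a gene was 95.1% in Neu+NETS, 18.2% in Neu and 40.1% in CTR.

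**Figure D1:**
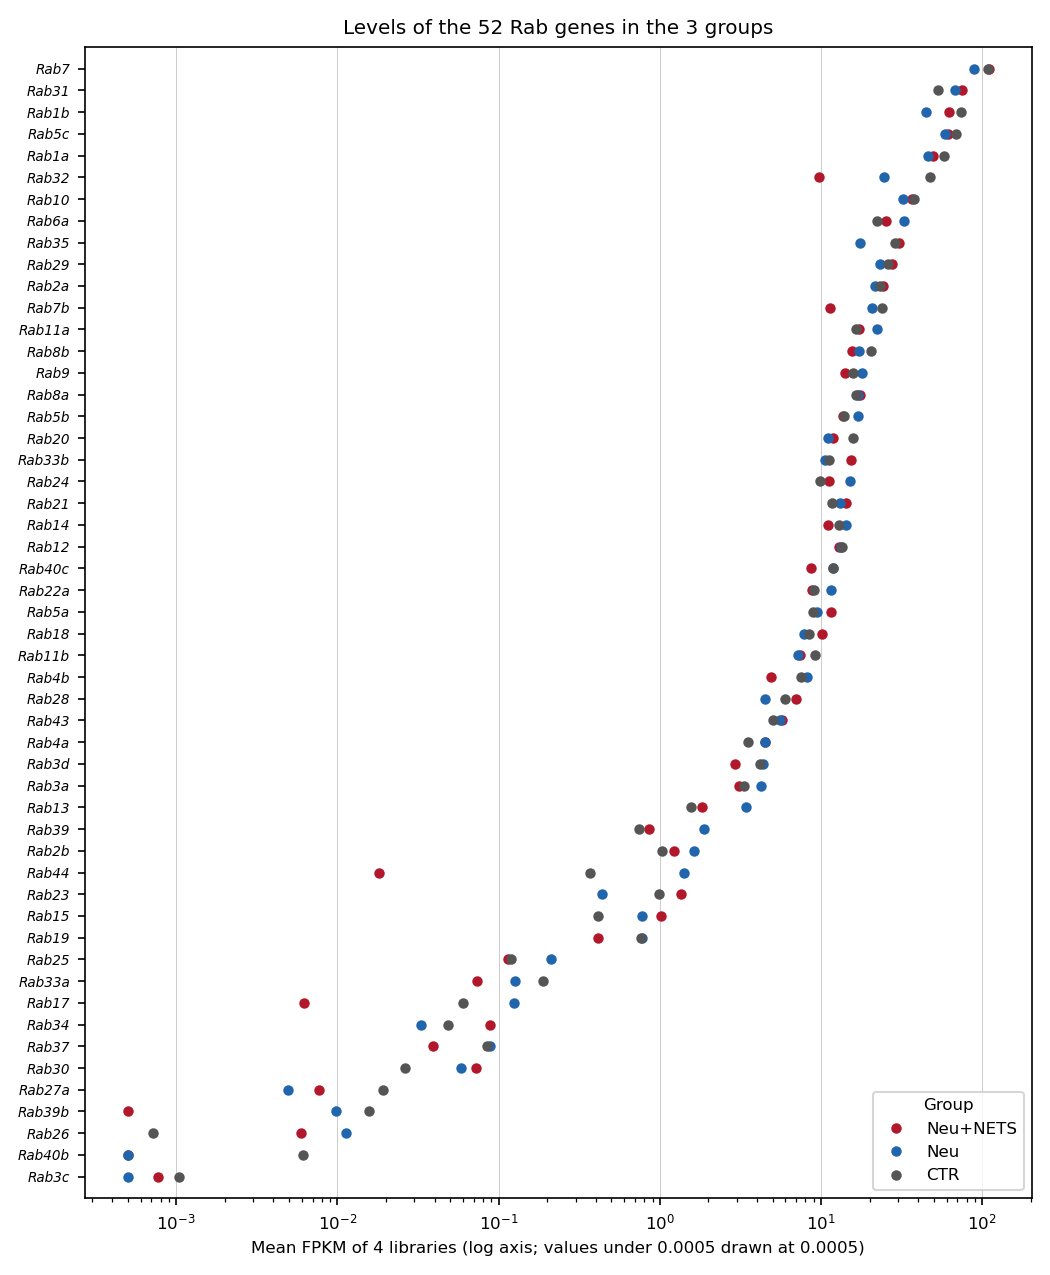
Mean FPKM of each of the 52 Rab genes in Neu+NETS, Neu and CTR (4 libraries each, log axis, genes ordered by their highest group mean; means under 0.0005 FPKM are drawn at 0.0005). Most genes sit at nearly the same level in the 3 groups, while Rab32, Rab7b and Rab44, and among genes under 1 FPKM everywhere Rab17 and Rab39b, lie to the left in Neu+NETS.

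In Neu+NETS against CTR, 9 of 47 tested Rab genes were higher (19.1%, where 21.6% of all genes tested were called higher) and 17 were lower (36.2%, where 23.7% of all genes tested were called lower). By at least 1.5-fold, 1 gene was higher and 6 were lower, and the median log2 fold change was -0.075, against 0.00 over all genes tested. The 6 include Rab17 and Rab19, which stayed under 1 FPKM on average in every group. With library totals alone in place of TMM, 13 Rab genes were higher and 15 lower, and with limma on log2(FPKM + 1) 11 were higher and 13 lower among 39 tested. Higher calls made up 34.6% of the calls among Rab genes and 47.6% among all genes in the edgeR fit with TMM, 46.4% and 56.7% with library totals alone, and 45.8% and 58.5% with limma, which also changes the measure, the model and the genes tested. In Neu against CTR, 18 Rab genes were higher (38.3%, against 26.1% of all genes tested) and 14 were lower (29.8%, against 27.9% of all genes tested). Here 7 rose and 4 fell by at least 1.5-fold, and the median was 0.119, against 0.02 over all genes tested. In Neu+NETS against Neu, 10 Rab genes were higher (21.3%, against 29.4% of all genes tested) and 22 were lower (46.8%, against 33.1% of all genes tested), with 2 higher and 10 lower by at least 1.5-fold and a median of -0.155, against -0.049. With limma on log2(FPKM + 1) this split was 14 higher and 18 lower, with medians of 0.003 for Rab genes and 0.104 for all genes tested. Sizes of change were like those of other genes: the median absolute log2 fold change was 0.27 for Rab genes and 0.271 for all genes tested in Neu+NETS against CTR, 0.347 and 0.369 in Neu against CTR, and 0.463 and 0.48 in Neu+NETS against Neu. The 10 genes lower by at least 1.5-fold in Neu+NETS against Neu include Rab17, Rab19 and Rab37, all under 1 FPKM on average in every group. How many of all genes tested passed 1.5-fold was not counted, so these counts have no share to stand beside. The 3 comparisons share libraries pairwise, so their counts are not independent of each other.

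**Figure D2:**
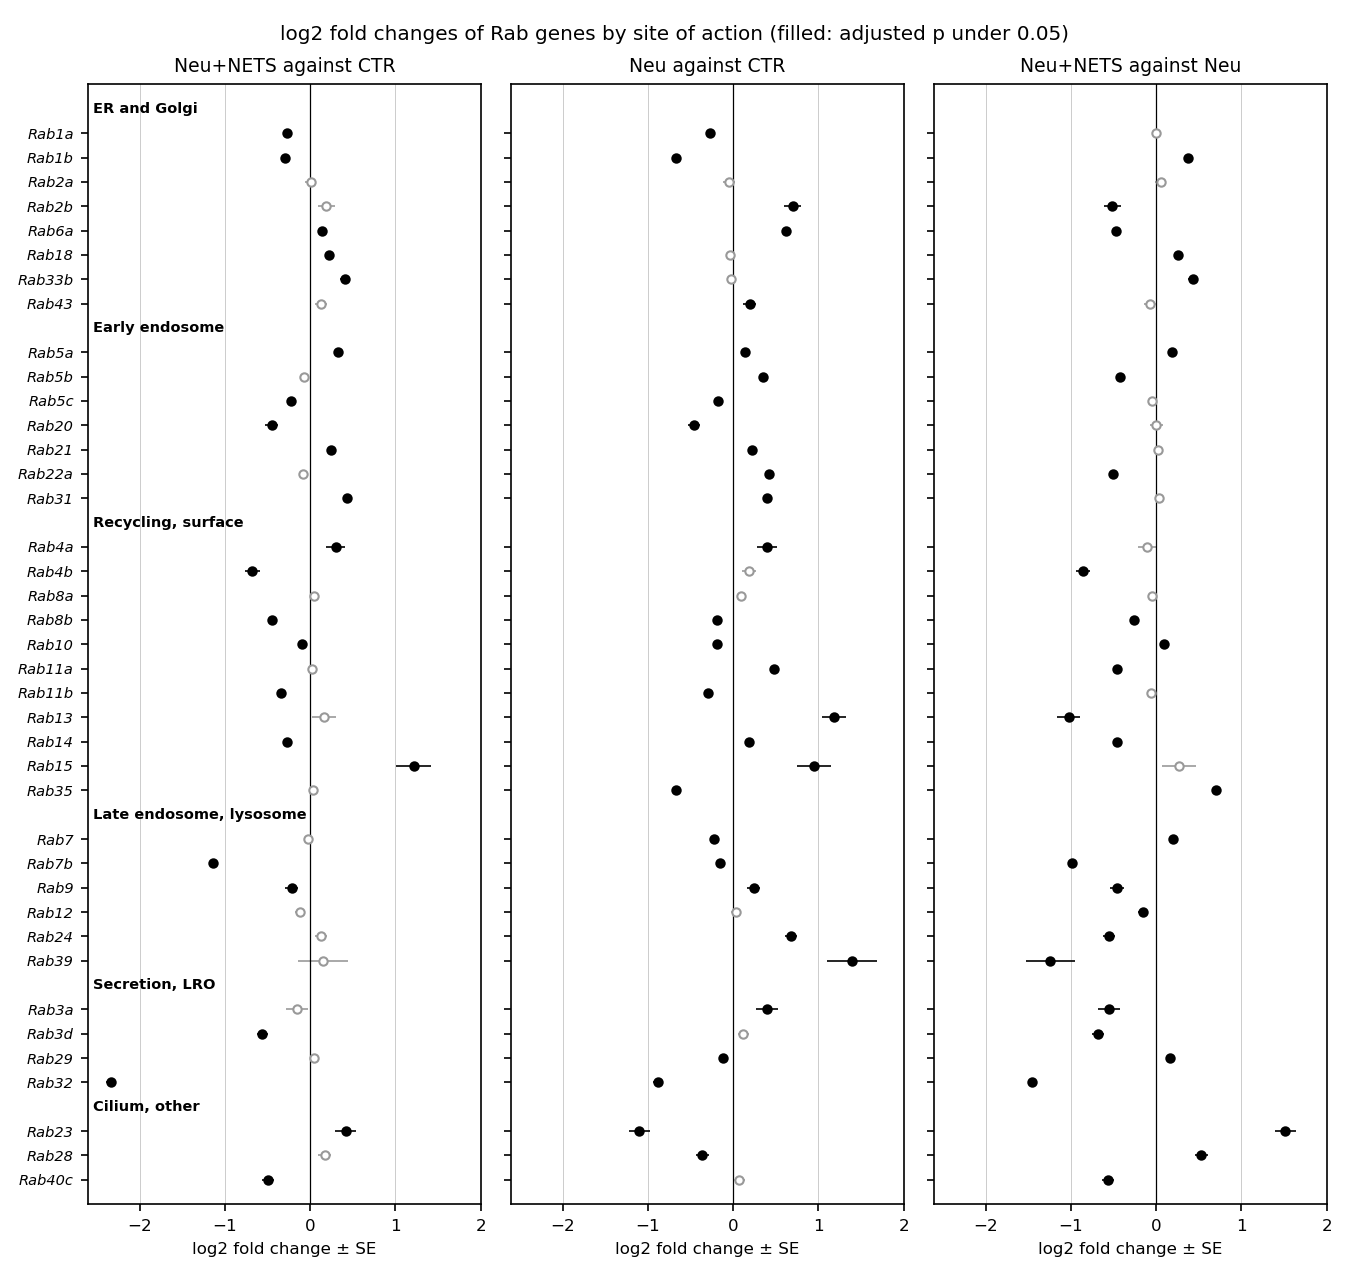
log2 fold change ± SE (x axis) of the Rab genes with at least 1 FPKM in some group, except Rab44, in the 3 comparisons, grouped by where the protein acts (LRO, lysosome-related organelles). Filled points have an adjusted p under 0.05 in edgeR's quasi-likelihood test. Rab32 and Rab7b lie furthest to the left in Neu+NETS against CTR, and Rab13 and Rab39 furthest to the right in Neu against CTR.

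Rabs of secretory granules and lysosome-related organelles held the gene with the largest fold among well-expressed members. Rab32 (GRCm39 chr10:10420746-10434009, minus strand), which directs cargo to melanosomes and related organelles and acts on the vacuoles of bacteria in macrophages, had 9.37, 9.76, 10.5 and 9.05 FPKM in Neu+NETS libraries, 25.5, 24.1, 25.5 and 23.4 FPKM in Neu libraries, and 47.9, 45.5, 46.4 and 49.6 FPKM in CTR libraries. Every Neu+NETS library lay below every Neu library, and every Neu library lay below every CTR library. Rab32 fell 5.06-fold in Neu+NETS against CTR (log2 fold change -2.34 ± 0.05, adjusted p = 2.4e-15). It fell 1.85-fold in Neu against CTR (-0.89 ± 0.05, adjusted p = 1.1e-10) and 2.74-fold in Neu+NETS against Neu (-1.45 ± 0.05, adjusted p = 1.7e-13). Hps1, a subunit of the exchange factor that activates Rab32, averaged 5.06 ± 0.34 FPKM in Neu+NETS, 8.84 ± 0.41 FPKM in Neu and 8.36 ± 0.32 FPKM in CTR, and fell 1.71-fold in Neu+NETS against CTR (adjusted p = 1.7e-09). The summed microglia and macrophage markers were likewise lowest in Neu+NETS, and their part in the Rab32 values was not tested.

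Rab44 (GRCm39 chr17:29333119-29367954, plus strand), an unusually large Rab with calcium-binding EF-hands that is known from mast cell and osteoclast granules, was scarce in all groups and nearly absent in one. Its FPKM were 0, 0.0404, 0.0211 and 0.0108 in Neu+NETS libraries, 1.33, 1.29, 1.54 and 1.48 in Neu libraries, and 0.319, 0.240, 0.439 and 0.480 in CTR libraries. The 3 groups did not overlap, and the Neu libraries were all above 1 FPKM. Rab44 rose 3.95-fold in Neu against CTR (1.98 ± 0.32, adjusted p = 4.2e-05). With estimated counts divided by 4, the assumed number per fragment, Neu+NETS held about 6 fragments over the 4 libraries, against 501 in Neu and 115 in CTR. The ratio of Neu to Neu+NETS was 82.2 (95% exact interval 37.5 to 225) and that of CTR to Neu+NETS 20.9 (9.3 to 58.0). These intervals cover counting error only, and their widths depend on the assumed divisor. The adjusted p was 8.7e-10 in Neu+NETS against Neu and 3.1e-07 in Neu+NETS against CTR. The summed neutrophil markers given above, some of which BV2 cells alone also showed, follow the same order of groups, and their part in the Rab44 values was not tested.

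Rab3d, an exocytic Rab of secretory granules, averaged 2.94 ± 0.12 FPKM in Neu+NETS, 4.38 ± 0.25 FPKM in Neu and 4.19 ± 0.22 FPKM in CTR. It fell 1.60-fold in Neu+NETS against Neu (-0.68 ± 0.07, adjusted p = 1.2e-07) and 1.47-fold in Neu+NETS against CTR (adjusted p = 3.2e-06). Rab3a, best known from synaptic vesicles, was 3.11 ± 0.27, 4.24 ± 0.35 and 3.34 ± 0.67 FPKM in Neu+NETS, Neu and CTR. Rab29, which recruits the kinase Lrrk2 to membranes, was 27.7 ± 0.42 FPKM in Neu+NETS, 23.1 ± 1.12 FPKM in Neu and 26.0 ± 1.22 FPKM in CTR. Its small fall in Neu against CTR (adjusted p = 0.047) was lost in 17 of 22 alternatives, among them DESeq2 and leaving out any of 10 libraries. Rab27a, the granule Rab that neutrophils and cytotoxic cells use for release, stayed under 12 counts in every library, as did Rab26, Rab3c, Rab39b and Rab40b, so these 5 were not tested. Rab37, a mast cell granule Rab, stayed under 0.1 FPKM on average in each group. Its lower call in Neu+NETS against Neu (adjusted p = 0.031), counted below, was lost in 5 of 18 alternatives. Of the 9 listed genes of this class, 6 were tested. In Neu+NETS against CTR 3 were lower and 3 not called (23.7% of all genes tested were lower), in Neu against CTR 2 were higher and 2 lower (26.1% and 27.9% of all genes), and in Neu+NETS against Neu 1 was higher and 5 lower (29.4% and 33.1% of all genes).

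**Figure D3:**
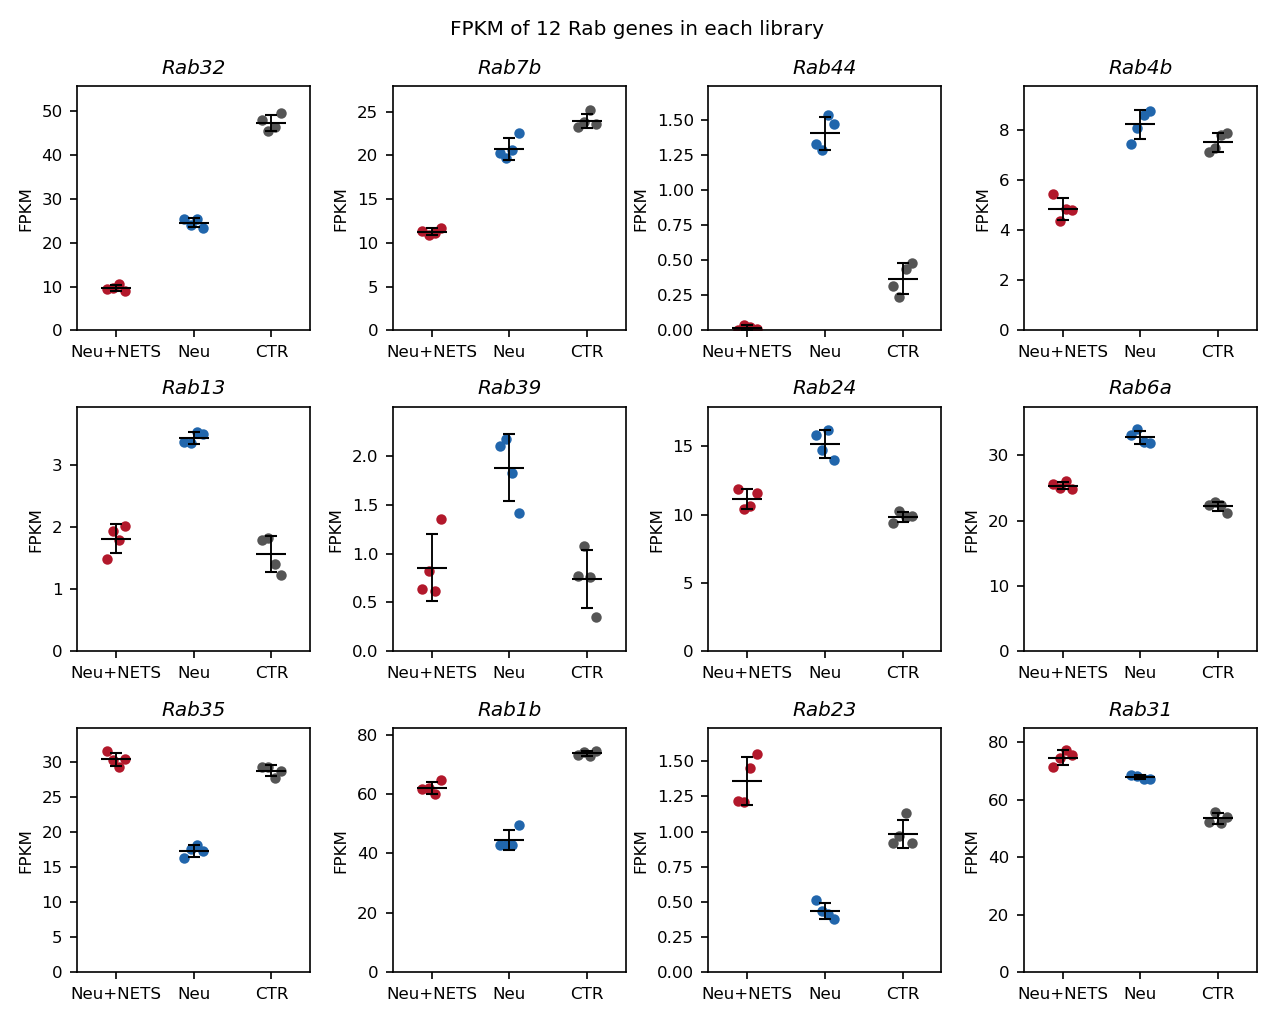
FPKM of 12 Rab genes in each library (points) with the mean and SD of the 4 libraries of a group (black bars), for Neu+NETS, Neu and CTR from left to right; y axes start at 0. Rab32 and Rab7b are lowest in Neu+NETS, Rab13, Rab39, Rab24 and Rab6a are highest in Neu, and Rab35, Rab1b and Rab23 are lowest in Neu.

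Among Rabs of late endosomes and lysosomes the paralogues Rab7 and Rab7b behaved differently. Rab7b (GRCm39 chr1:131616433-131643177, plus strand), which in macrophages is known for directing Toll-like receptors to degradation and for traffic to the trans-Golgi, had 11.4, 10.9, 11.1 and 11.7 FPKM in Neu+NETS libraries, 20.3, 19.7, 20.6 and 22.6 FPKM in Neu libraries, and 23.2, 23.8, 25.1 and 23.6 FPKM in CTR libraries. The Neu+NETS libraries lay far below both others, and Neu lay just below CTR without overlap. Rab7b fell 2.20-fold in Neu+NETS against CTR (-1.13 ± 0.04, adjusted p = 8.6e-13) and 1.98-fold in Neu+NETS against Neu (-0.99 ± 0.04, adjusted p = 1.2e-12), but only 1.11-fold in Neu against CTR (adjusted p = 0.0043). Rab7 averaged 110 ± 2.3 FPKM in Neu+NETS, 89.0 ± 2.3 FPKM in Neu and 108 ± 1.0 FPKM in CTR. It rose by 0.20 ± 0.03 on the log2 scale in Neu+NETS against Neu (adjusted p = 1.4e-05), fell 1.17-fold in Neu against CTR (adjusted p = 5.0e-06), and did not pass the test in Neu+NETS against CTR (adjusted p = 0.55). The Rab7b share of their summed FPKM was 9.30 ± 0.28% in Neu+NETS, 18.9 ± 1.26% in Neu and 18.1 ± 0.61% in CTR. A Rab7 pseudogene, Rab7-ps1, was listed at 7.06 ± 0.90, 5.73 ± 0.57 and 6.44 ± 0.98 FPKM in Neu+NETS, Neu and CTR, and reads that it shares with Rab7 cannot be assigned with certainty.

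Rab39, a Rab of phagosomes that in humans binds caspase-1, had 0.634, 0.820, 0.617 and 1.36 FPKM in Neu+NETS libraries, 2.10, 2.17, 1.82 and 1.42 FPKM in Neu libraries, and 0.770, 1.07, 0.759 and 0.352 FPKM in CTR libraries. Every Neu library exceeded all others, though by little at the edges. Rab39 rose 2.63-fold in Neu against CTR (1.39 ± 0.29, adjusted p = 6.1e-04) and fell 2.36-fold in Neu+NETS against Neu (-1.24 ± 0.29, adjusted p = 0.0013). Rab24, linked to autophagy, averaged 11.1 ± 0.71 FPKM in Neu+NETS, 15.2 ± 1.02 FPKM in Neu and 9.84 ± 0.36 FPKM in CTR, and rose 1.60-fold in Neu against CTR (0.68 ± 0.07, adjusted p = 1.6e-07). Rab9, which returns receptors from late endosomes to the Golgi, was 13.97 ± 1.39, 17.9 ± 1.56 and 15.7 ± 0.86 FPKM in Neu+NETS, Neu and CTR, and was 1.38-fold lower in Neu+NETS than in Neu (adjusted p = 7.4e-05). Rab12, which sends recycling receptors to lysosomes, was 12.8 ± 0.46, 13.3 ± 0.73 and 13.5 ± 0.57 FPKM in the same groups. Rab34, a further Rab of this class, stayed under 0.1 FPKM on average in each group. Of 7 tested genes of this class, 2 were lower (28.6%, against 23.7% of all genes tested) and 5 not called in Neu+NETS against CTR. In Neu against CTR 3 were higher and 2 lower (42.9% and 28.6%, against 26.1% and 27.9% of all genes), and in Neu+NETS against Neu 1 was higher and 5 lower (14.3% and 71.4%, against 29.4% and 33.1% of all genes).

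In Neu, Rabs that recycle receptors and deliver cargo to the surface moved in both directions. Rab13 (GRCm39 chr3:90121002-90133692, plus strand), which carries cargo to cell junctions and the leading edge, had 1.49, 1.94, 1.79 and 2.02 FPKM in Neu+NETS libraries, 3.37, 3.35, 3.53 and 3.51 FPKM in Neu libraries, and 1.80, 1.83, 1.41 and 1.24 FPKM in CTR libraries. All Neu libraries were higher than any other, while Neu+NETS and CTR overlapped. Rab13 rose 2.27-fold in Neu against CTR (1.18 ± 0.14, adjusted p = 1.3e-06), fell 2.04-fold in Neu+NETS against Neu (-1.03 ± 0.14, adjusted p = 4.7e-06), and missed the threshold in Neu+NETS against CTR (0.16 ± 0.14, adjusted p = 0.39). Rab35 (GRCm39 chr5:115769967-115785795, plus strand), which drives fast recycling and links endosomes to actin, showed the opposite order, with 31.5, 30.3, 29.3 and 30.4 FPKM in Neu+NETS libraries, 16.2, 17.6, 18.2 and 17.3 FPKM in Neu libraries, and 29.2, 29.3, 27.6 and 28.7 FPKM in CTR libraries. The Neu libraries were far below the others, and the Neu+NETS and CTR libraries met at 29.3 FPKM. Rab35 fell 1.59-fold in Neu against CTR (-0.67 ± 0.04, adjusted p = 3.0e-10) and was 1.63-fold higher in Neu+NETS than in Neu (0.70 ± 0.04, adjusted p = 9.0e-11), with a difference of 0.03 ± 0.04 in Neu+NETS against CTR (adjusted p = 0.58).

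The Rab4 and Rab11 pairs of the recycling pathway split. Rab4b, of the fast route back to the surface, had 5.44, 4.38, 4.84 and 4.795 FPKM in Neu+NETS libraries, 7.45, 8.09, 8.60 and 8.78 FPKM in Neu libraries, and 7.12, 7.28, 7.80 and 7.89 FPKM in CTR libraries. Only the Neu+NETS libraries stood apart, and Rab4b fell 1.60-fold against CTR (-0.68 ± 0.08, adjusted p = 3.6e-06) and 1.82-fold against Neu (-0.86 ± 0.08, adjusted p = 8.1e-08). Its paralogue Rab4a averaged 4.50 ± 0.37 FPKM in Neu+NETS, 4.49 ± 0.44 FPKM in Neu and 3.54 ± 0.45 FPKM in CTR. Rab4a was higher in Neu than in CTR (0.40 ± 0.11, adjusted p = 0.0070), while its rise in Neu+NETS against CTR (0.30 ± 0.11, adjusted p = 0.044) was lost in 9 of 22 alternatives. The Rab4b share of both was 51.9 ± 2.39% in Neu+NETS, 64.7 ± 3.12% in Neu and 68.1 ± 2.59% in CTR. Rab11a, of the slow recycling endosome, averaged 17.2 ± 0.57 FPKM in Neu+NETS, 22.1 ± 1.16 FPKM in Neu and 16.5 ± 0.51 FPKM in CTR, and rose 1.40-fold in Neu against CTR (adjusted p = 1.6e-07). Rab11b averaged 7.45 ± 0.23, 7.19 ± 0.10 and 9.15 ± 0.38 FPKM and fell in both neutrophil groups against CTR (adjusted p = 1.4e-06 in Neu+NETS and 6.0e-06 in Neu). A pseudogene, Rab11b-ps2, was listed at 6.28 ± 1.89, 5.74 ± 1.60 and 7.44 ± 0.74 FPKM in Neu+NETS, Neu and CTR, close to Rab11b itself, so the Rab11b values are uncertain.

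The other recycling Rabs that reached 10 FPKM changed by less than 1.5-fold in every comparison. Rab8b, of transport to the plasma membrane, averaged 15.5 ± 0.80 FPKM in Neu+NETS, 17.3 ± 0.35 FPKM in Neu and 20.5 ± 0.94 FPKM in CTR and fell in both neutrophil groups, whereas its paralogue Rab8a (17.4 ± 0.31, 16.8 ± 0.43 and 16.4 ± 0.87 FPKM) passed no test. Rab14, which moves cargo between Golgi and endosomes, averaged 11.1 ± 0.25, 14.2 ± 0.41 and 13.0 ± 0.47 FPKM and was 1.38-fold lower in Neu+NETS than in Neu (adjusted p = 1.1e-09). Rab10, which acts in the delivery of glucose transporters in fat cells, was 36.6 ± 0.65, 32.1 ± 0.31 and 38.0 ± 0.89 FPKM in Neu+NETS, Neu and CTR. Rab15, an endosomal Rab, was near 1 FPKM in Neu+NETS (1.01 ± 0.18) and lower in Neu (0.778 ± 0.049) and CTR (0.416 ± 0.130), and rose 2.32-fold in Neu+NETS against CTR (adjusted p = 1.0e-04). Rab17 and Rab25, which are typical of epithelia, averaged at most 0.125 and 0.210 FPKM in a group. Rab17, with at most 30 counts in a library, was called lower in Neu+NETS against CTR (adjusted p = 0.027) and against Neu (adjusted p = 0.0021). The call against CTR was lost in 6 of 17 alternatives. Rab17 is 1 of the 6 lower genes in both of these comparisons below. Of the 13 tested genes of this class, 2 were higher and 6 lower in Neu+NETS against CTR (15.4% and 46.2%, against 21.6% and 23.7% of all genes tested). There were 5 higher and 4 lower in Neu against CTR (38.5% and 30.8%, against 26.1% and 27.9%), and 2 higher and 6 lower in Neu+NETS against Neu (15.4% and 46.2%, against 29.4% and 33.1%).

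**Figure D4:**
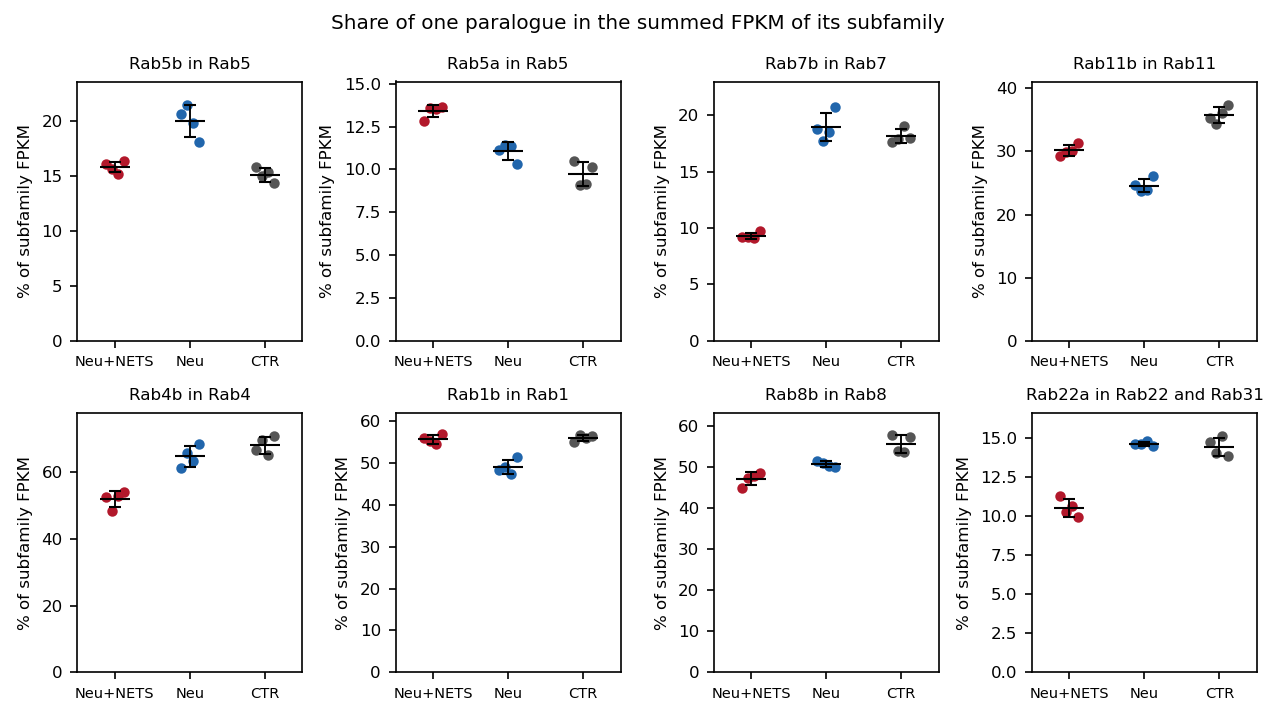
Share of a named paralogue in the summed FPKM of its subfamily (y axis, percent, from 0), in each library (points) with mean and SD (black bars), for Neu+NETS, Neu and CTR from left to right. The Rab7b share is 9.30% in Neu+NETS and 18.1% in CTR, the Rab4b share is lowest in Neu+NETS at 51.9%, and the Rab1b share is lowest in Neu at 49.0%.

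All 7 early endosome Rabs were called in Neu against CTR, 5 higher and 2 lower, although none by 1.5-fold, whereas 3 were higher and 2 lower in Neu+NETS against CTR and 1 higher and 2 lower in Neu+NETS against Neu. Of all genes tested, 26.1% were called higher and 27.9% lower in Neu against CTR, 21.6% and 23.7% in Neu+NETS against CTR, and 29.4% and 33.1% in Neu+NETS against Neu. The 3 forms of Rab5, which control the fusion of early endosomes and young phagosomes, did not move together. Rab5a averaged 11.5 ± 0.28 FPKM in Neu+NETS, 9.40 ± 0.06 FPKM in Neu and 8.90 ± 0.50 FPKM in CTR. Rab5b averaged 13.6 ± 0.38, 16.9 ± 0.58 and 13.8 ± 0.48 FPKM, and Rab5c, the most abundant form, averaged 61.0 ± 2.13, 58.7 ± 4.51 and 68.99 ± 2.13 FPKM. Rab5a was highest in Neu+NETS and Rab5b in Neu, without overlap with the other groups. Against CTR, Rab5a rose in Neu+NETS (0.33 ± 0.04, adjusted p = 5.2e-06) and Rab5b rose in Neu (0.35 ± 0.04, adjusted p = 1.1e-06), while Rab5c fell in Neu+NETS (-0.23 ± 0.04, adjusted p = 4.5e-04) and in Neu (-0.18 ± 0.04, adjusted p = 0.0026). The rise of Rab5a in Neu against CTR (0.14 ± 0.04, adjusted p = 0.010) did not pass under limma on FPKM (adjusted p 0.0939 to 0.0953).

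Rab31, which carries receptors from the trans-Golgi to endosomes, was among the most abundant Rabs, with 71.3, 74.3, 77.3 and 75.4 FPKM in Neu+NETS libraries, 68.4, 68.3, 67.2 and 67.3 FPKM in Neu libraries, and 52.1, 55.8, 52.0 and 54.0 FPKM in CTR libraries. Both neutrophil groups exceeded CTR without overlap, and the fitted rise was 1.35-fold in Neu+NETS (adjusted p = 6.9e-09) and 1.32-fold in Neu (adjusted p = 9.7e-09). The Neu+NETS and Neu libraries did not overlap in FPKM either, but on the TMM scale they differed by 0.03 ± 0.03 (adjusted p = 0.38). Its relative Rab22a, an early endosome Rab, averaged 8.77 ± 0.42, 11.6 ± 0.15 and 9.002 ± 0.24 FPKM in Neu+NETS, Neu and CTR and rose 1.34-fold in Neu against CTR (adjusted p = 1.3e-07). Rab20, which acts on phagosome maturation in macrophages, averaged 11.9 ± 0.25 FPKM in Neu+NETS, 11.03 ± 0.53 FPKM in Neu and 15.8 ± 1.51 FPKM in CTR, and fell 1.37-fold in both neutrophil groups against CTR (adjusted p = 8.5e-05 in Neu+NETS and 5.3e-05 in Neu). Rab21, which binds integrins during uptake, averaged 14.3 ± 0.61, 13.1 ± 0.66 and 11.7 ± 0.34 FPKM in Neu+NETS, Neu and CTR and rose in both neutrophil groups (adjusted p = 2.0e-04 in Neu+NETS and 4.1e-04 in Neu).

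Among Rabs of the endoplasmic reticulum and Golgi, Rab1a and Rab1b fell and Rab6a rose in both neutrophil groups against CTR. Rab1b, of transport from endoplasmic reticulum to Golgi, had 61.6, 62.2, 59.9 and 64.8 FPKM in Neu+NETS libraries, 42.9, 42.7, 42.8 and 49.5 FPKM in Neu libraries, and 73.3, 74.1, 72.9 and 74.5 FPKM in CTR libraries. The groups did not overlap, and Neu was lowest. Rab1b fell 1.59-fold in Neu against CTR (-0.67 ± 0.04, adjusted p = 1.4e-10) and by 0.30 ± 0.04 on the log2 scale in Neu+NETS against CTR (adjusted p = 6.0e-06), and Rab1a fell by 0.27 ± 0.03 in both (adjusted p = 6.6e-07 in Neu+NETS and 3.6e-07 in Neu). Rab6a, of retrograde transport, averaged 25.3 ± 0.57 FPKM in Neu+NETS, 32.7 ± 1.01 FPKM in Neu and 22.2 ± 0.68 FPKM in CTR. It rose 1.53-fold in Neu against CTR (0.62 ± 0.04, adjusted p = 2.2e-10) and by 0.14 ± 0.04 in Neu+NETS against CTR (adjusted p = 0.0039), with no overlap between the 3 groups. Rab2b, a scarce Golgi form, averaged 1.22 ± 0.06 FPKM in Neu+NETS, 1.62 ± 0.08 FPKM in Neu and 1.03 ± 0.05 FPKM in CTR, and rose 1.62-fold in Neu against CTR (adjusted p = 1.3e-05), whereas the abundant Rab2a passed no test. Rab33b, which binds the autophagy protein Atg16l1, averaged 15.4 ± 0.94 FPKM in Neu+NETS, 10.6 ± 0.58 FPKM in Neu and 11.2 ± 0.59 FPKM in CTR, and rose 1.33-fold in Neu+NETS against CTR (adjusted p = 1.3e-05). Rab18, of the endoplasmic reticulum and lipid droplets, averaged 10.1 ± 0.39 FPKM in Neu+NETS, 7.83 ± 0.39 FPKM in Neu and 8.39 ± 0.12 FPKM in CTR, and rose 1.16-fold in Neu+NETS against CTR (adjusted p = 4.0e-04). Rab43, a Golgi Rab, was 5.72 ± 0.38, 5.58 ± 0.44 and 5.07 ± 0.47 FPKM in Neu+NETS, Neu and CTR, and Rab30 stayed under 0.1 FPKM on average in each group. Of the 9 genes of this class, all tested, 3 were higher and 2 lower in each of the 3 comparisons (33.3% and 22.2%). Over all genes tested these shares were 21.6% and 23.7% in Neu+NETS against CTR, 26.1% and 27.9% in Neu against CTR, and 29.4% and 33.1% in Neu+NETS against Neu.

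Of the Rabs tied to cilia or other roles, Rab23, which restrains Hedgehog signalling, averaged 1.36 ± 0.17 FPKM in Neu+NETS, 0.437 ± 0.058 FPKM in Neu and 0.983 ± 0.101 FPKM in CTR. It was 2.86-fold higher in Neu+NETS than in Neu (1.52 ± 0.12, adjusted p = 9.8e-09) and 2.15-fold lower in Neu than in CTR (-1.10 ± 0.12, adjusted p = 8.0e-07), and the groups did not overlap. Rab28, a ciliary Rab, averaged 6.94 ± 0.17, 4.47 ± 0.25 and 5.96 ± 0.73 FPKM in Neu+NETS, Neu and CTR. Rab40c, part of a ubiquitin ligase, averaged 8.63 ± 0.27 FPKM in Neu+NETS, 11.9 ± 1.54 FPKM in Neu and 11.8 ± 0.55 FPKM in CTR, and fell 1.41-fold in Neu+NETS against CTR (adjusted p = 1.6e-05). Rab19 averaged 0.414 ± 0.160, 0.776 ± 0.158 and 0.767 ± 0.283 FPKM in Neu+NETS, Neu and CTR, and its lower call in Neu+NETS against CTR (adjusted p = 0.026) was lost in 5 of 20 alternatives. Rab33a averaged at most 0.189 FPKM in a group. Of the 5 tested genes of this class, 1 was higher and 2 lower in Neu+NETS against CTR (21.6% and 23.7% of all genes tested), 2 were lower and 3 not called in Neu against CTR (27.9% of all genes were lower), and 2 were higher and 2 lower in Neu+NETS against Neu (29.4% and 33.1% of all genes).

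The proteins that switch and place Rabs were described through 4 lists. The lists were counted in the edgeR fit with TMM alone, and their directions were not checked with other scalings. Of 15 genes for prenylation and membrane cycling, all tested, 9 were higher and 2 lower in Neu+NETS against CTR, 10 higher and 1 lower in Neu against CTR, and 2 higher and 6 lower in Neu+NETS against Neu. Over all genes tested, the calls higher and lower were 21.6% and 23.7%, 26.1% and 27.9%, and 29.4% and 33.1% in the same comparisons. The medians were 0.202, 0.242 and -0.132 on the log2 scale, against 0.00, 0.02 and -0.049 over all genes tested. Gdi2, a GDP dissociation inhibitor, averaged 46.2 ± 0.59 FPKM in Neu+NETS, 55.0 ± 1.02 FPKM in Neu and 52.8 ± 2.08 FPKM in CTR and fell 1.18-fold in Neu+NETS against CTR (adjusted p = 2.0e-06). Rabggta and Rabggtb, subunits of the geranylgeranyl transferase that attaches the lipid tail, split: Rabggta rose 1.34-fold in Neu against CTR (adjusted p = 3.6e-06), and Rabggtb rose 1.26-fold in Neu+NETS against CTR (adjusted p = 4.7e-05). Chm, the escort protein that presents Rabs to this enzyme, rose in both neutrophil groups against CTR, 1.18-fold in Neu+NETS (adjusted p = 2.9e-05) and 1.17-fold in Neu (adjusted p = 3.1e-05).

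Of 37 tested exchange factors, 9 were higher and 18 lower in Neu+NETS against CTR (median -0.09), 15 higher and 9 lower in Neu against CTR (median 0.017), and 8 higher and 17 lower in Neu+NETS against Neu (median -0.084). All genes tested had 21.6% higher and 23.7% lower calls in Neu+NETS against CTR (median 0.00), 26.1% and 27.9% in Neu against CTR (median 0.02), and 29.4% and 33.1% in Neu+NETS against Neu (median -0.049). Rin2, an exchange factor for Rab5, averaged 3.51 ± 0.26 FPKM in Neu+NETS, 14.8 ± 0.36 FPKM in Neu and 12.6 ± 0.52 FPKM in CTR, and fell 3.72-fold in Neu+NETS against CTR (adjusted p = 9.8e-15). Rab3il1, an exchange factor for Rab3 and Rab8, averaged 1.26 ± 0.09, 1.31 ± 0.14 and 4.56 ± 0.33 FPKM and fell 3.75-fold in Neu+NETS (adjusted p = 1.5e-11) and 3.34-fold in Neu (adjusted p = 2.3e-11) against CTR. Dennd4b, a DENN domain factor, averaged 8.99 ± 0.43 FPKM in Neu+NETS, 25.5 ± 1.94 FPKM in Neu and 13.5 ± 0.65 FPKM in CTR, and Dennd1c, which activates Rab35 and Rab13 in human cells, averaged 3.21 ± 0.11, 9.02 ± 0.69 and 5.10 ± 0.55 FPKM. Of 38 tested GTPase-activating proteins, 8 were higher and 14 lower in Neu+NETS against CTR (median -0.07), 17 higher and 6 lower in Neu against CTR (median 0.155), and 8 higher and 18 lower in Neu+NETS against Neu (median -0.169), beside 21.6% and 23.7%, 26.1% and 27.9%, and 29.4% and 33.1% of all genes tested in these comparisons. Evi5l was scarce, at 0.566 ± 0.067 FPKM in Neu+NETS, 1.78 ± 0.14 FPKM in Neu and 0.745 ± 0.094 FPKM in CTR. Evi5l rose 2.47-fold in Neu against CTR (adjusted p = 2.9e-08), and Tbc1d16 fell 1.67-fold in the same comparison (adjusted p = 1.8e-11).

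Of 58 tested effectors and tethers, 13 were higher and 22 lower in Neu+NETS against CTR (median -0.111), 26 higher and 13 lower in Neu against CTR (median 0.099), and 13 higher and 33 lower in Neu+NETS against Neu (median -0.302). The shares over all genes tested were 21.6% higher and 23.7% lower, 26.1% and 27.9%, and 29.4% and 33.1% in these comparisons, with medians of 0.00, 0.02 and -0.049. Appl2, an adaptor that binds Rab5 and Rab31, averaged 8.59 ± 0.34 FPKM in Neu+NETS, 36.9 ± 1.36 FPKM in Neu and 7.66 ± 0.12 FPKM in CTR. It rose 4.99-fold in Neu against CTR (adjusted p = 7.9e-17) and fell 4.61-fold in Neu+NETS against Neu (adjusted p = 4.6e-17). Rufy1, an endosomal effector of Rab4 and Rab14, fell to 13.2 ± 0.35 FPKM in Neu+NETS, against 25.4 ± 0.86 FPKM in CTR (1.99-fold, adjusted p = 5.7e-12). Golga2, the Golgi tether that binds Rab1, was 16.6 ± 0.48 FPKM in Neu+NETS, against 31.3 ± 1.17 FPKM in Neu (2.03-fold lower, adjusted p = 2.8e-14). Eea1, the Rab5 tether of early endosomes, rose to 13.9 ± 0.78 FPKM in Neu+NETS, against 9.66 ± 0.27 FPKM in CTR (1.39-fold, adjusted p = 9.9e-08).

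**Figure D5:**
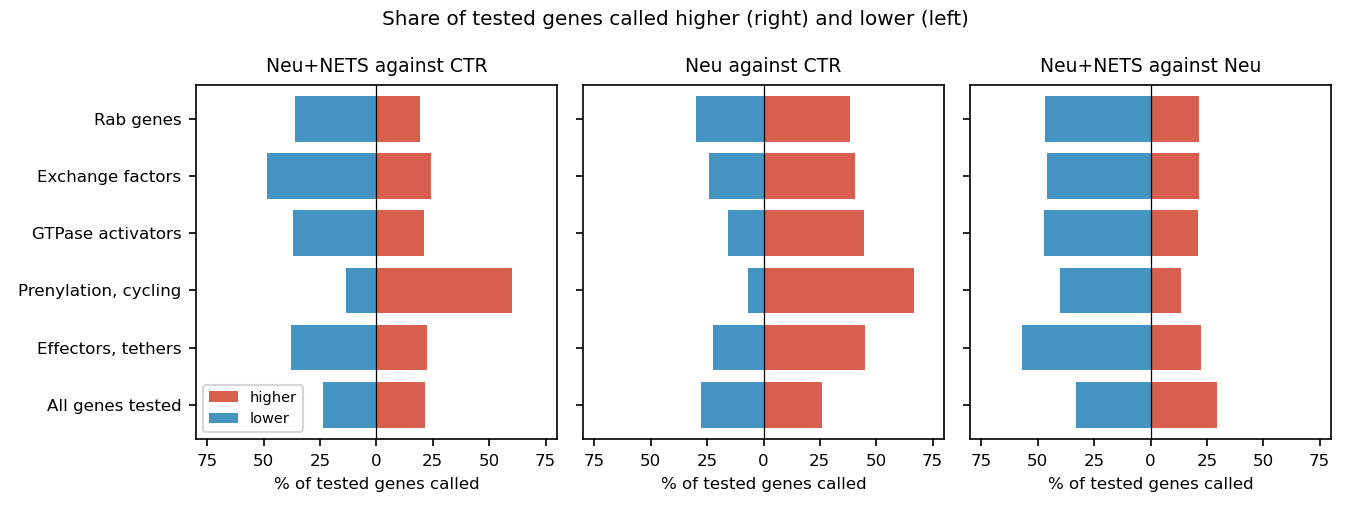
Share of tested genes called higher (right of 0) and lower (left of 0) at an adjusted p under 0.05, as a percentage of the genes tested, for the 47 Rab genes, the 4 lists of Rab regulators and effectors, and all 16387 genes tested, in the 3 comparisons. Prenylation and cycling genes lie mostly to the right in both comparisons with CTR. Lower calls outnumber higher ones in all lists in Neu+NETS against Neu, as they do over all genes tested (33.1% lower and 29.4% higher).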

How the data were processed

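RNA-seq of 12 libraries was analysed from 1 deposited table holding, per gene and library, estimated counts and FPKM. The estimated counts stand as whole numbers in the deposited table, with totals that differ between libraries, and were used unchanged. The FPKM columns are the authors' own, per the file headers. The submitters' processing notes list build GRCm39 and, without a stated role, edgeR, StringTie 1.3.4d and HISAT2 2.0.4. No source used here gives the strand setting, so genes with antisense partners (Rab10, Rab11b, Rab26) are uncertain. Of counts from 2 to 41, 33% were multiples of 4, where an even spread gives 25%. About 4 counts were assumed to be 1 fragment, which these shares do not settle. Columns left unmatched numbered 0.

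Genes were filtered with filterByExpr, scaled by TMM (factors 0.97 to 1.03) and fitted over all libraries with edgeR 4.0.16 in R 4.3.3 (glmQLFit and two-sided glmQLFTest, Benjamini-Hochberg adjustment per comparison, common biological coefficient of variation 12.5%), after the script had been tested on simulated data. With estimated counts divided by 4, replicates differed beyond sampling noise (chi-square per degree of freedom 2.04 to 5.08 over 18 pairs). The size of these values depends on the assumed divisor. Members and lists were chosen with earlier results of these data known. Any Rab gene could be named; full statistics went to called members of at least 1 FPKM and 1.5-fold and to paralogues that moved apart, with values added for others to describe their class. From each list, called genes of at least 1 FPKM with the largest folds were eligible, up to 4 per direction, and Gdi2, Chm, Rabggta and Rabggtb always; 1 further gene is not reported here. Alternatives were DESeq2 1.42.0, limma 3.58.1 on log2(FPKM + 1) and log2(FPKM + 0.1), other scalings and filters, counts divided by 4, fits of the compared groups alone, a replicate block, and leaving out each library. Intervals cover counting error only. Promoter sequences are from RefSeq (GRCm38.p6) and are not placed on the GRCm39 coordinates of the table.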

Additional observations from a re-analysis of the deposited data

Results flagged for a closer look

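In 7 of 141 groups of 4 libraries examined, 1 library's FPKM stood far from the other 3 relative to the group's range, and chance flags about 1 in 20 such groups. For Rab1b, Neu replicate 4 was at 49.46 FPKM, above 42.73 to 42.93 FPKM in the other Neu libraries. For Rab8b, Neu replicate 3 was at 16.75 FPKM, below the others, and for Rab22a, Neu replicate 4 was at 11.37 FPKM, below the others. For Rab21, CTR replicate 3 was at 11.19 FPKM, the lowest of its group. For Rab3a, CTR replicate 2 was at 4.335 FPKM, above a next value of 3.027 FPKM. For the scarce Rab17, Neu+NETS replicate 1 was at 0.02495 FPKM with the other 3 at 0, and CTR replicate 3 was at 0.1302 FPKM with a next value of 0.04641 FPKM.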

How the results depend on the processing

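Every count of called Rab genes stayed within 1.5 times its value under 22 alternatives, and no called Rab gene changed sign. The call held in every alternative that tested the gene for 21 of 26 called Rab genes in Neu+NETS against CTR, 28 of 32 in Neu against CTR and 30 of 32 in Neu+NETS against Neu. Of 724 recomputed values for 33 named changes, 11 no longer passed: 9 for Rab4a in Neu+NETS against CTR (adjusted p 0.0537 to 0.126) and 2 for Rab5a in Neu against CTR. Among other small changes, Rab9 in Neu+NETS against CTR lost its call in 11 alternatives, Rab43 in Neu against CTR in 8, and Rab12 in Neu+NETS against Neu in 6. Libraries with the same replicate number showed no shared deviation from their group means (correlations -0.055 to 0.043), which does not settle whether the cultures were paired. With a replicate block, 9 Rab genes were higher and 15 lower in Neu+NETS against CTR, 17 and 13 in Neu against CTR, and 10 and 21 in Neu+NETS against Neu. Among all genes, higher calls made up 47.6% of calls in Neu+NETS against CTR, 48.3% in Neu against CTR and 47.1% in Neu+NETS against Neu, and 58.5%, 38.7% and 59.9% under limma on log2(FPKM + 1), which moved the all-gene median from -0.049 to 0.104 in Neu+NETS against Neu and from 0.02 to -0.082 in Neu against CTR. With that pseudocount the changes of scarce genes shrank: Rab44 in Neu against CTR was 0.82, Rab39 0.74, and Rab23 in Neu+NETS against Neu 0.71. Depth limits Rab44 in Neu+NETS and the 5 untested genes.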
